A study of Mus musculus with 4 samples.

Results

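The transforming growth factor beta (TGF-beta) superfamily was examined here through 10 genes, matched by symbol among the 55401 genes of the deposited expression table. They comprised 4 ligand genes (Tgfb1, Tgfb2, Tgfb3 and Inhba) and 2 genes of secreted antagonists (Grem1 and Fst). The other 4 were target genes of signalling by the superfamily (Id1, Id2, Id3 and Smad7). The genes were chosen by function with earlier results of these data known, and so in part on the CPM values and differences of the same 4 libraries given here. The values are therefore a description, and the tests on them are no independent evidence for any pattern.

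Ligands of this superfamily bind pairs of type I and type II receptor kinases, which phosphorylate SMAD transcription factors. TGF-beta and activin act mainly through SMAD2 and SMAD3, and bone morphogenetic proteins (BMPs) through SMAD1, SMAD5 and SMAD9. SMAD4 is the shared partner, SMAD6 and SMAD7 are inhibitors induced in feedback, and the ID genes are classical BMP targets whose products block E proteins by binding to them. In macrophages TGF-beta is known to restrain inflammatory activation, and activin A is made on stimulation.

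The cells were bone marrow-derived macrophages grown in vitro with M-CSF, from C57BL/6 mice of 8 weeks, sequenced as poly(A) RNA after 24 h together with MC38, a mouse colon carcinoma line. The knockout group (KO, genotype LysM-cre, Mettl3fl/fl) had 2 libraries, numbered 3 and 1, and the control group (WT, genotype Mettl3fl/fl) also had 2, numbered 3 and 1. All carried the floxed Mettl3 gene, which encodes the catalytic subunit of the m6A mRNA methyltransferase, and all met MC38 cells. The LysM-cre driver acts in myeloid cells. The labels name neither the deleted exons nor a step that separated macrophages from MC38 cells. Labels speak of biological replicates without saying what an equal number shares, so p-values measure only the spread between these libraries.

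Total counts ran from 55100415 to 79209870 per library. Mettl3 itself stood at 19.6 and 13.9 CPM (counts per 1e+06 counts, scaled for library size) in KO 3 and KO 1, against 23.2 and 18.3 CPM in WT 3 and WT 1. These counts cover the whole gene and so do not check the genotype labels. All 12 macrophage markers had at least 1 FPKM (fragments per kilobase and 1e+06 fragments) in every library, led by Lyz2 and Adgre1. Epcam, Krt8, Krt18, Krt20 and Cdx2 stood at a count of 0 in all 4 libraries, and the 10 epithelial markers summed to 0.939 to 1.97 CPM. Libraries numbered 3 stood apart from those numbered 1. Xist, the X-inactivation RNA, had 1161 and 1350 CPM in KO 3 and WT 3, against 0.624 and 0.589 CPM in KO 1 and WT 1. Ddx3y, on the Y chromosome, had 0.139 and 0.307 CPM in KO 3 and WT 3, against 89.0 and 72.1 CPM in KO 1 and WT 1. The number thus coincided with the sex pattern, and the effects of sex, animal and culture on the 10 genes cannot be told apart.

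All 10 genes passed the filter on low counts. Their positions below are those of the deposited table, which match GENCODE M21 for 9 of the 10. Their levels differed widely per unit of length. Tgfb1 was highest, with a mean of 48.2 FPKM over the 4 libraries, followed by Id2 with 30.2, Inhba with 24.9, Id3 with 12.6 and Grem1 with 10.9 FPKM. Id1 averaged 2.70 FPKM, Smad7 1.33, Tgfb3 0.841, Tgfb2 0.321 and Fst 0.217 FPKM. This order held only on average. In KO 3 Inhba (47.5 FPKM) exceeded Tgfb1 (44.6 FPKM), whereas in KO 1 Inhba had 2.89 FPKM beside 48.7 FPKM of Tgfb1. In WT 3 Id2 (54.6 FPKM) was the highest of the set, and in WT 1 Tgfb1 (50.9 FPKM).

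**Figure D1:**
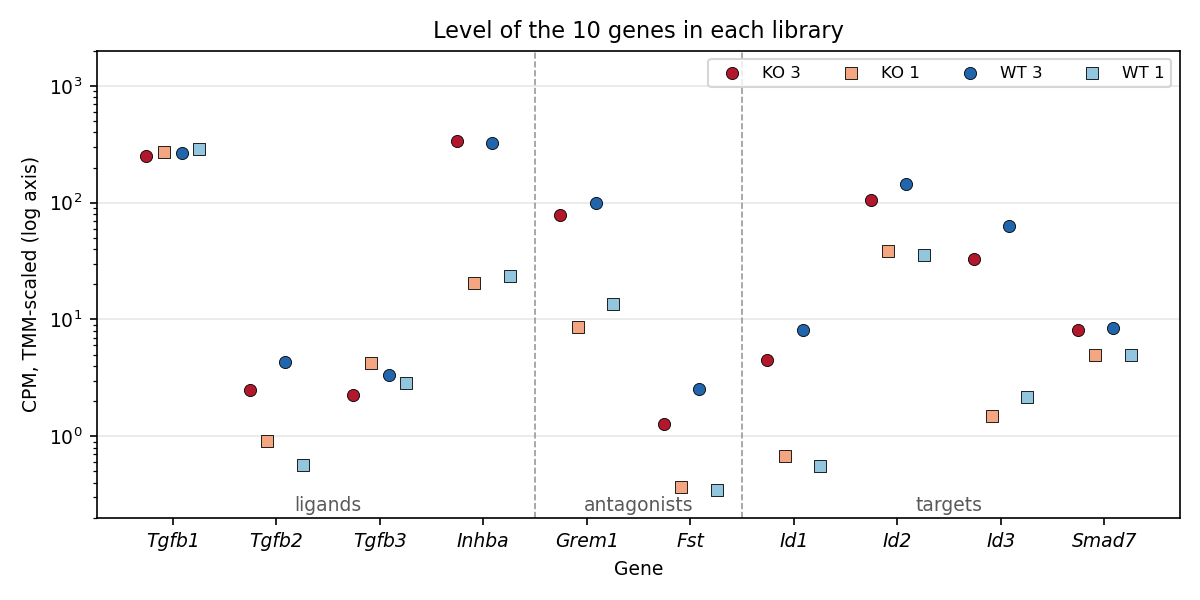
CPM of each gene (log axis) in KO 3, KO 1, WT 3 and WT 1, 1 point per library. Circles (number 3) lie above squares (number 1) for 8 of the 10 genes, whereas red (KO) and blue (WT) points overlap for all 10.

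Between genotypes no gene of the set passed the test. edgeR's quasi-likelihood test called 0 of the 10, where it called 0% of all 17260 tested genes (391 genes, 2.27% of those tested and none of the set, had an unadjusted p under 0.05). DESeq2 likewise called 0 of the 10, against 0.295% of all genes. The knockout and control libraries overlapped for all 10. For comparison, among all tested genes 13.1% had both knockouts above both controls and 13.4% had both below. The median log2 fold change of the set was -0.36, against 0.00 over all tested genes, and 8 of the 10 values lay below 0. The median difference was -0.51 within number 3 but 0.04 within number 1. In this comparison the SE ran from 0.15 for Tgfb1 to 1.88 for Id3. The fit had no term for library number, so each SE includes the difference between numbers. A fit with number as a block is given in the closing sections. For all 10 genes the difference between numbers was the larger of the 2 in size. Each gene's fitted value is followed by its difference within a library number, which has 1 library per genotype and carries no test. Marker lists of other cells differed between genotypes in both directions, and edgeR called 0 of their genes (2, Klrb1c and Hbb-bt, had an unadjusted p under 0.05). The 18 fibroblast and stromal markers had 17 log2 fold changes below 0 (median -0.48), and 13 erythroid, megakaryocyte and mast cell markers summed to 3.54 and 5.40 CPM in KO 3 and KO 1, against 9.46 and 10.2 CPM in WT 3 and WT 1. Among these 13 markers DESeq2 called 1 gene, Hbb-bt, with 0 counts in KO 3 and KO 1, against 41 and 76 counts in WT 3 and WT 1 (DESeq2 adjusted p = 0.00144). Neutrophil markers summed to 26.8 and 19.6 CPM in KO 3 and KO 1, against 18.7 and 14.8 CPM in WT 3 and WT 1. Of the tested genes, 4 of 4 dendritic cell, 3 of 5 endothelial, 2 of 2 T and NK cell and 2 of 2 B cell markers lay above 0. Summed CPM over each full list, KO over WT at numbers 3 and 1, was 1.37 and 1.19 for dendritic cell markers. It was 0.858 and 0.888 for endothelial, 0.986 and 1.45 for T and NK cell and 0.865 and 1.87 for B cell markers. The part of these cells in the values below was not tested.

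Tgfb1, the TGF-beta isoform that immune cells chiefly make, was the steadiest gene of the set. Tgfb1 (ENSMUSG00000002603, chromosome 7, 25687002 to 25705077, plus strand) stood at 252 and 272 CPM in KO 3 and KO 1, against 268 and 288 CPM in WT 3 and WT 1. The fit gave a log2 fold change of -0.09 ± 0.15 between genotypes (SE, n = 2 each; edgeR adjusted p = 1.00), and the libraries numbered 3 alone gave -0.09, those numbered 1 alone -0.08. All 4 libraries lay within a narrow band, and between numbers its log2 fold change was -0.11 ± 0.12.

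Inhba encodes the beta A chain, whose homodimer is activin A. Inhba (ENSMUSG00000041324, chromosome 13, 16011851 to 16031621, plus strand) stood at 339.9 and 20.5 CPM in KO 3 and KO 1, against 322 and 23.6 CPM in WT 3 and WT 1. Both libraries numbered 3 were high and both numbered 1 low, whatever the genotype. KO over WT came to 0.06 ± 1.63 on the log2 scale (SE, n = 2 each; edgeR adjusted p = 1.00), to 0.08 in the libraries numbered 3 and to -0.20 in those numbered 1. Between numbers Inhba was 15.0-fold higher in number 3 (log2 fold change 3.91 ± 0.15, SE, n = 2 per number; edgeR adjusted p = 0.0310), with 4.05 in KO and 3.77 in WT.

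Tgfb2 and Tgfb3, the other TGF-beta isoforms, were scarce. Tgfb2 (ENSMUSG00000039239, chromosome 1, 186622792 to 186705989, minus strand) had 2.48 and 0.911 CPM in KO 3 and KO 1, against 4.33 and 0.570 CPM in WT 3 and WT 1. It had only 57 and 31 counts in KO 1 and WT 1. KO minus WT on the log2 scale was -0.80 for number 3 but 0.65 for number 1, and the fitted value was -0.53 ± 1.07. Tgfb2 stood 4.48-fold higher in number 3 and did not pass the test (edgeR adjusted p = 0.168). Tgfb3 (ENSMUSG00000021253, chromosome 12, 86056745 to 86079041, minus strand) had 2.26 and 4.21 CPM in KO 3 and KO 1, against 3.32 and 2.87 CPM in WT 3 and WT 1. The Tgfb3 libraries overlapped by genotype and by number. KO minus WT was -0.55 for number 3 and 0.55 for number 1, and the fitted value was 0.06 ± 0.44. Tgfb3 overlaps 3 genes on the opposite strand, among them Ttll5. Inhba and Tgfb2 overlap 2 each and Fst overlaps 1, and without a stated strand setting their reads cannot be told apart.

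Grem1, or gremlin 1, is a secreted protein that binds and blocks BMPs. Grem1 (ENSMUSG00000074934, chromosome 2, 113746164 to 113758646, minus strand) had 78.4 and 8.68 CPM in KO 3 and KO 1, against 100.3 and 13.4 CPM in WT 3 and WT 1. It was lower in the knockout at both numbers, with a difference of -0.35 (log2) at number 3 and -0.63 at number 1. The fitted value of -0.39 ± 1.32 did not pass (edgeR adjusted p = 1.00). Between numbers Grem1 was 8.21-fold higher in number 3 (log2 fold change 3.04 ± 0.15, SE, n = 2 per number; edgeR adjusted p = 0.0315). That difference was 3.17 in KO and 2.90 in WT.

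Fst encodes follistatin, which binds and neutralizes activin. Fst (ENSMUSG00000021765, chromosome 13, 114452290 to 114458951, minus strand) was the scarcest of the set, at 1.26 and 0.368 CPM in KO 3 and KO 1, against 2.53 and 0.3496 CPM in WT 3 and WT 1. The values of KO 1 and WT 1 rest on 23 and 19 counts. KO minus WT was -0.99 (log2) at number 3 and 0.07 at number 1, and the fitted value was -0.82 ± 1.13. Fst stood 4.96-fold higher in number 3 and did not pass the test (edgeR adjusted p = 0.158). Its lower libraries were those numbered 1, as for Inhba, and a link between the 2 genes was not tested.

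The promoters of Inhba, Grem1 and Tgfb1 are shown because they set a gene with a 15.0-fold and one with an 8.21-fold difference between numbers beside one with no difference that passed the test. The windows are the 250 bases before the RefSeq start site (GRCm38.p6), 5′ to 3′ on the gene's strand, at chr13:16011601-16011850 (plus strand) for Inhba, chr2:113758649-113758898 (minus strand) for Grem1 and chr7:25686752-25687001 (plus strand) for Tgfb1. Capitals mark matches to a searched motif.

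Inhba: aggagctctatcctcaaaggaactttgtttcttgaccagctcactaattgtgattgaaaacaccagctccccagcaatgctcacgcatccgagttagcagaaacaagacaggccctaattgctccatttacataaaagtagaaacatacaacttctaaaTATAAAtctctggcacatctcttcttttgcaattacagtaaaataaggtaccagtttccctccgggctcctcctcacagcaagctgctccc
Grem1: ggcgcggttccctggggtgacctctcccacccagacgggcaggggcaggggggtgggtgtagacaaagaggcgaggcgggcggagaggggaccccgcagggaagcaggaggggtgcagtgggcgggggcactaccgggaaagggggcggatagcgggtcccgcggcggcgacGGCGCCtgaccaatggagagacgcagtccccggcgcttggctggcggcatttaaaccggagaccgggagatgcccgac
Tgfb1: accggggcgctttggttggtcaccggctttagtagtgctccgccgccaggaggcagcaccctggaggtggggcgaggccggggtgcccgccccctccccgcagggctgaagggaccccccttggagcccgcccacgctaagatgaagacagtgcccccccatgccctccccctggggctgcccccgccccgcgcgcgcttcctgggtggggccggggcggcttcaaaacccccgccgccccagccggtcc

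The Inhba window was 43.2% G or C, against 72.0% for Grem1 and 75.2% for Tgfb1. Both strands were searched for GGCGCC (a GC-rich element bound by SMAD1 and SMAD5), the SMAD palindrome GTCTAGAC, the AP-1 site TGANTCA, the cAMP response element TGACGTCA and the TATA box TATAAA. Grem1 held GGCGCC, whose match starts at -78 from the start site, as did 9.59% of all 32851 promoter windows. Inhba held TATAAA, with the match starting at -91, as did 12.4% of windows. The Tgfb1 window held no searched motif. Windows were also found for 3 more genes of the set. Id2 held GGCGCC at -231 and Tgfb2 held TATAAA at -31, while the Id3 window held no searched motif. For Id2 and Id3 the RefSeq start site lay 1048 and 325 bases from the deposited 5′ end. Their windows (chr12:25096093-25096342 and chr4:136143572-136143821) thus lay inside the deposited genes and not before them. These are matches of letters, and no binding was measured.

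Id3 differed most between the libraries. The products of the ID genes are helix-loop-helix proteins without a DNA-binding part and keep E proteins off DNA. Id3 (ENSMUSG00000007872, chromosome 4, 136143497 to 136145392, plus strand) stood at 32.8 and 1.49 CPM in KO 3 and KO 1, against 63.6 and 2.17 CPM in WT 3 and WT 1. Both libraries numbered 3 were far above both numbered 1, and the knockout was the lower one at both numbers. KO minus WT was -0.96 (log2) at number 3 and -0.54 at number 1, with a fitted value of -0.94 ± 1.88 (SE, n = 2 each; edgeR adjusted p = 1.00). Between numbers Id3 was 25.4-fold higher in number 3 (log2 fold change 4.67 ± 0.20, SE, n = 2 per number; edgeR adjusted p = 0.0315), with 4.43 in KO and 4.85 in WT. It had the widest difference between numbers among the 10 genes.

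Id1 (ENSMUSG00000042745, chromosome 2, 152736251 to 152737410, plus strand), the ID gene most often read as a BMP target, stood at 4.52 and 0.672 CPM in KO 3 and KO 1, against 8.17 and 0.552 CPM in WT 3 and WT 1. The counts in KO 1 and WT 1 were only 42 and 30. KO minus WT was -0.85 (log2) at number 3 and 0.27 at number 1, with a fitted value of -0.75 ± 1.46. Id1 stood 9.90-fold higher in number 3 and did not pass the test (edgeR adjusted p = 0.0686). Id2 (ENSMUSG00000020644, chromosome 12, 25093799 to 25097140, minus strand), the most abundant ID gene here, stood at 106 and 38.7 CPM in KO 3 and KO 1, against 146 and 35.9 CPM in WT 3 and WT 1. For Id2, KO minus WT was -0.46 (log2) at number 3 and 0.11 at number 1, with a fitted value of -0.33 ± 0.81. Id2 stood 3.33-fold higher in number 3 and also missed the threshold (edgeR adjusted p = 0.0597).

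Smad7, the inhibitory SMAD that TGF-beta induces in feedback, was close between genotypes within each number. Smad7 (ENSMUSG00000025880, chromosome 18, 75367529 to 75395935, plus strand) stood at 8.17 and 5.00 CPM in KO 3 and KO 1, against 8.52 and 4.99 CPM in WT 3 and WT 1. KO minus WT was -0.06 (log2) at number 3 and 0.005 at number 1, with a fitted value of -0.04 ± 0.43. Between numbers the log2 fold change was 0.74 ± 0.22 (edgeR adjusted p = 0.224). The 2 libraries of each number were closer to each other than to the other number.

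**Figure D2:**
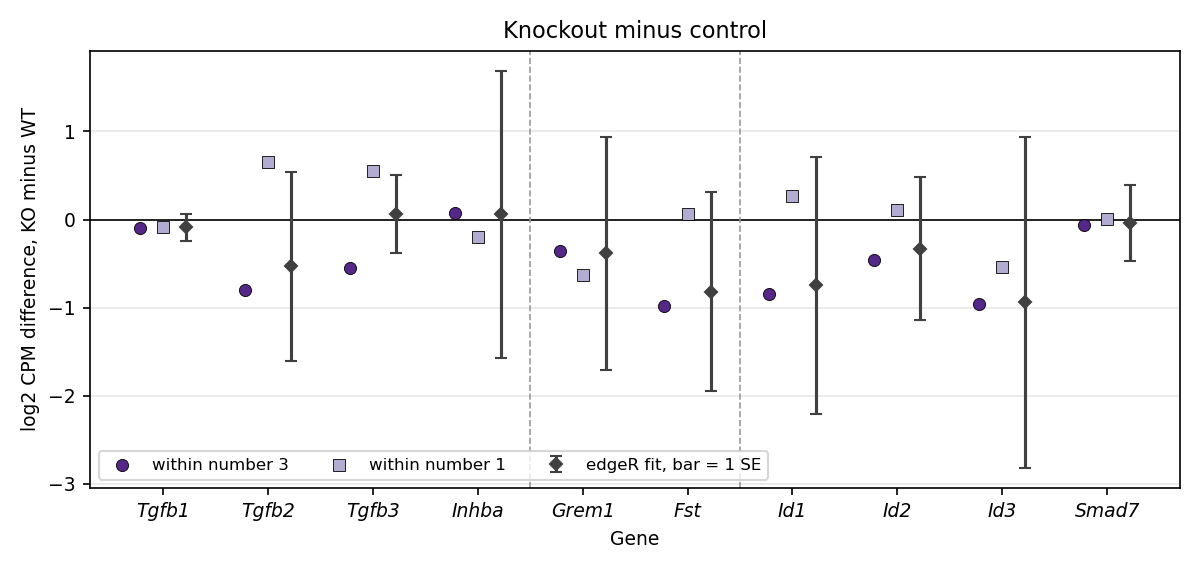
Difference KO minus WT in log2 CPM for each gene, within number 3 (circles), within number 1 (squares) and as fitted over all 4 libraries (diamonds, bars of 1 SE). All bars cross 0, and the within-number points of Tgfb1, Grem1 and Id3 both lie below 0.

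Within number 3, 9 of the 10 genes were lower in the knockout, as were 52.1% of all tested genes, with Inhba the exception. Within number 1, 4 of the 10 were lower in the knockout, against 49.3% of all tested genes. Only Tgfb1, Grem1 and Id3 lay below 0 within both numbers, 3 of 10 beside 27.2% of all tested genes, a share near the background. The sign was opposite at the 2 numbers for the other 7, and for 47% of all tested genes. Counting error bears on this: with 4 counts taken as 1 read pair, the 95% interval (Clopper-Pearson) of the ratio within number 1 included 0 on the log2 scale for 8 of the 10 genes, all but Tgfb1 and Grem1. Within number 3 it included 0 for 2 of the 10, Tgfb3 and Smad7. For Id3 the interval was -1.10 to -0.81 within number 3 and -1.44 to 0.25 within number 1. Such intervals cover counting error only and not the spread between animals or cultures. They were not computed for the other tested genes, so these counts show nothing particular to the set.

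The comparison of library numbers used an additive fit with number and genotype as terms. Here 3 of the 10 genes (Inhba, Grem1 and Id3) passed, all higher in number 3, where edgeR called 0.707% of all tested genes (0.406% higher and 0.301% lower). Both libraries numbered 3 lay above both numbered 1 for 8 of the 10 genes, as for 26.2% of those tested. They lay below for 1, Tgfb1, as for 25.2% of those tested. The median log2 fold change of the set was 2.24, against 0.00 over all tested genes. A log2 fold change of at least 1 in size was seen in 7 of the 10 genes and in 18.2% of all tested genes, and one of 3 or more in 4 of the 10 (Inhba, Grem1, Id1 and Id3) and in 1.39%. The number of calls depended on the fit. A fit on number alone, added after seeing the data, called 5 of the 10 with all 4 libraries and 1.03% of all tested genes. Leaving out 1 library in that fit leaves 1 library at its number. Without WT 1 and without KO 1, Inhba had log2 fold changes of 4.02 and 3.82. Grem1 had 3.37 and 2.74, and Id3 5.02 and 4.48. Without WT 3 and without KO 3, Inhba had 3.95 and 3.87, Grem1 2.83 and 3.18, and Id3 4.17 and 5.12. Without the filter on low counts 0 of the 10 passed, beside 0 of all 25066 genes. With DESeq2 6 passed (Tgfb2, Inhba, Grem1, Id1, Id2 and Id3), beside 4.92% of all genes.

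**Figure D3:**
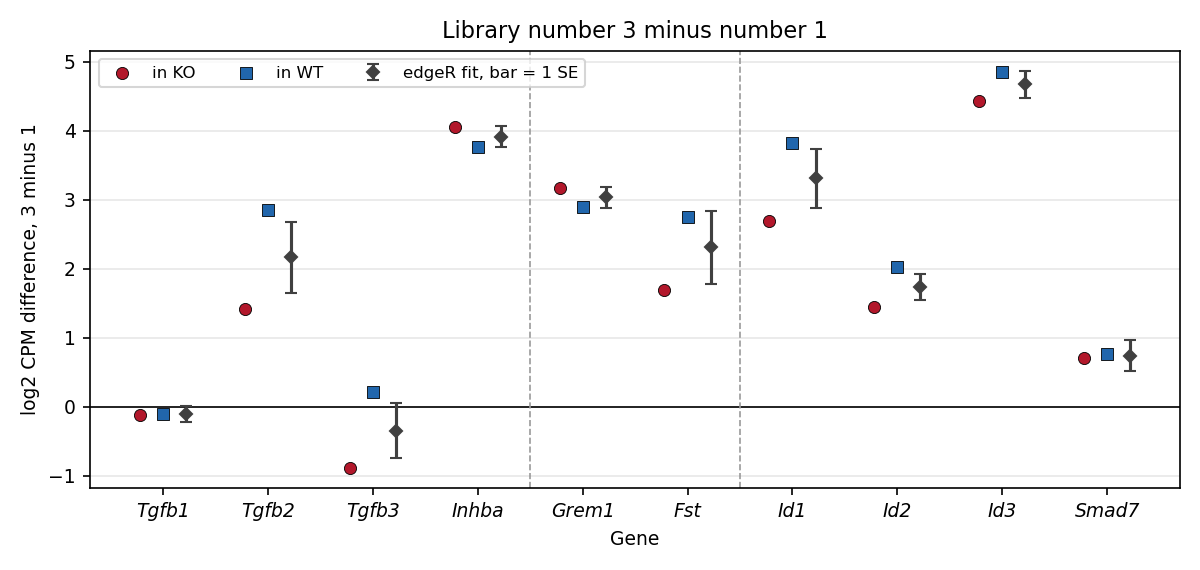
Difference of number 3 minus number 1 in log2 CPM for each gene, in KO (circles), in WT (squares) and as fitted over all 4 libraries (diamonds, bars of 1 SE). Tgfb1 lies near 0 in KO and WT, Tgfb3 lies on opposite sides of 0, Smad7 is above 0 in both, and Id3 and Inhba are highest as fitted.

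Marker lists of other cell types also differed with the library number. The 18 fibroblast and stromal markers summed to 1221 and 1788 CPM in KO 3 and WT 3, against 605 and 767 CPM in KO 1 and WT 1, which is 2.02-fold in KO and 2.33-fold in WT. Between 12 and 15 of the 18 had at least 1 FPKM in a library, and 0 or 1 stood at a count of 0. Their median log2 fold change was 1.31, and 15 of the 18 lay above 0, with 3 called and all higher in number 3. Within number 3 their sum in KO was 0.683 times that in WT, and within number 1 it was 0.788 times. Of these genes Sparc and Col1a1 had the highest mean FPKM (29.3 and 26.2). The same ratio of number 3 to number 1 was 16.6 in KO and 13.7 in WT for Inhba, 9.03 and 7.47 for Grem1, and 22.03 and 29.3 for Id3. The 5 endothelial markers had a median of 1.76 with 0 called, with 4 above 0 and 1 below. Emcn, the widest of them, was chosen after its values were seen. It stood at 9.72 and 6.99 CPM in KO 3 and WT 3, against 0.767 and 0.202 CPM in KO 1 and WT 1. Pecam1, the most abundant of the 5, was the 1 below 0, with a log2 fold change of -0.21 ± 0.13. It stood at 77.8 and 101.5 CPM in KO 3 and WT 3, against 96.4 and 109.9 CPM in KO 1 and WT 1. The sum of the 5 was 1.11-fold in KO and 1.15-fold in WT. The 4 tested neutrophil markers had a median of 1.33, with S100a9 set against a floor of 12 counts per library. Of these, 3 lay above 0 and 1 below, and the most abundant, S100a8, was at 0.26 ± 0.16. The sum of all 8 neutrophil markers was 1.365-fold in KO and 1.26-fold in WT. Erythroid, megakaryocyte and mast cell markers had a median of -1.24. The 12 macrophage markers had a median of -0.08 between numbers, and their sum was 1.04-fold in KO and 1.36-fold in WT. The part of these cells in the differences was not tested, and in bulk RNA more cells of a type and more RNA per cell cannot be told apart.

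Genes around the set in the pathway were taken from fixed lists. In the fits without a term for library number, edgeR and DESeq2 each called 0 of the 67 tested between genotypes. Of these, 0 had an unadjusted edgeR p under 0.05 there. With number as a block, edgeR also passed 0 genes, but some of the lists had an unadjusted p under 0.05, as did 929 of all tested genes. Among them were Ltbp2 (log2 fold change -0.92), Fstl1 (-0.54), Thbs1 (-0.65) and Ccn2 (-0.42) below 0. Gdf15 (0.97) and Smad1 (0.43) lay above 0. Skil, Pmepa1, Ltbp2 and Smad6 each belong to more than 1 list. Receptors and coreceptors (11 of 14 tested) had 4 values above 0 and 7 below; their median log2 value was -0.07. The TGF-beta type II receptor Tgfbr2 stood at 264 and 307 CPM in KO 3 and KO 1, against 226 and 319 CPM in WT 3 and WT 1. The activin type I receptor Acvr1b had a log2 fold change of -0.10 ± 0.16. Among the 7 SMAD genes tested, with a median of 0.02, Smad4 had a log2 fold change of 0.02 ± 0.16 and Smad5 one of 0.06 ± 0.24. Single genes of both lists lay further from 0, such as Tgfbr3 at -0.78 ± 0.49 and Smad1 at 0.43 ± 0.21, chosen after their values were seen.

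Genes of TGF-beta latency and activation (12 of 13 tested) had 9 values below 0 and a median of -0.27. Thbs1, the matrix glycoprotein that can activate latent TGF-beta, stood at 4461 and 5122 CPM in KO 3 and KO 1, against 6447 and 8671 CPM in WT 3 and WT 1. Both knockouts lay below both controls for Thbs1, with a log2 fold change of -0.66 ± 0.26 that did not pass (edgeR unadjusted p = 0.0589). The membrane protease Mmp14 had 0.15 ± 0.28. Other TGF-beta target genes (12 tested) had 9 values below 0 and a median of -0.16. Tgfbi is a secreted matrix protein induced by TGF-beta. It stood at 904 and 661 CPM in KO 3 and KO 1, against 1041 and 1155 CPM in WT 3 and WT 1. Both knockouts lay below both controls for Tgfbi too. This held for 1 of 12 latency genes and 2 of 12 other targets, beside 13.4% of all tested genes, a share near the background.

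Other inhibitors (11 of 13 tested) split into 6 above 0 and 5 below, with a median of 0.00. The corepressors Ski and Skil had log2 fold changes of 0.01 ± 0.17 and 0.00 ± 0.62. Other ligands of the superfamily (9 of 26 tested) had 7 values above 0 and a median of 0.32. Gdf15 is a stress-induced ligand. It stood at 13.4 and 3.65 CPM in KO 3 and KO 1, against 8.23 and 1.53 CPM in WT 3 and WT 1. Gdf15 was thus higher in the knockout at both numbers. Gdf3 had 0.13 ± 0.83. Other BMP targets (6 of 8 tested) had 5 values below 0 and a median of -0.24, with -0.23 ± 0.71 for Smad6 and -1.21 ± 1.15 for Atoh8. The 3 E protein genes, whose products ID proteins bind, lay below 0 with a median of -0.06, Tcf3 at -0.05 ± 0.18 and Tcf12 at -0.19 ± 0.22.

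Between library numbers the list medians (log2) were -0.14 for receptors, -0.21 for the latency list, 0.13 for E protein genes, 0.39 for SMADs, 0.69 for other inhibitors, 0.97 for other ligands and 1.03 for other TGF-beta targets, beside 0.00 over all tested genes. Differences between the lists were not tested. For other BMP targets the median was 1.98 with Id4, which had 0 counts in KO 1 and WT 1, set against a floor of 12 counts per library. Genes of these lists that passed the test were higher in number 3. Ccn2, a matricellular TGF-beta target, stood at 98.7 and 120.1 CPM in KO 3 and WT 3, against 14.9 and 21.9 CPM in KO 1 and WT 1 (log2 fold change 2.59 ± 0.15, SE, n = 2 per number; edgeR adjusted p = 0.0319). Fstl1, a secreted glycoprotein of the follistatin-like family, had a log2 fold change of 1.295 ± 0.13 (edgeR adjusted p = 0.049977, just under the threshold).

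**Figure D4:**
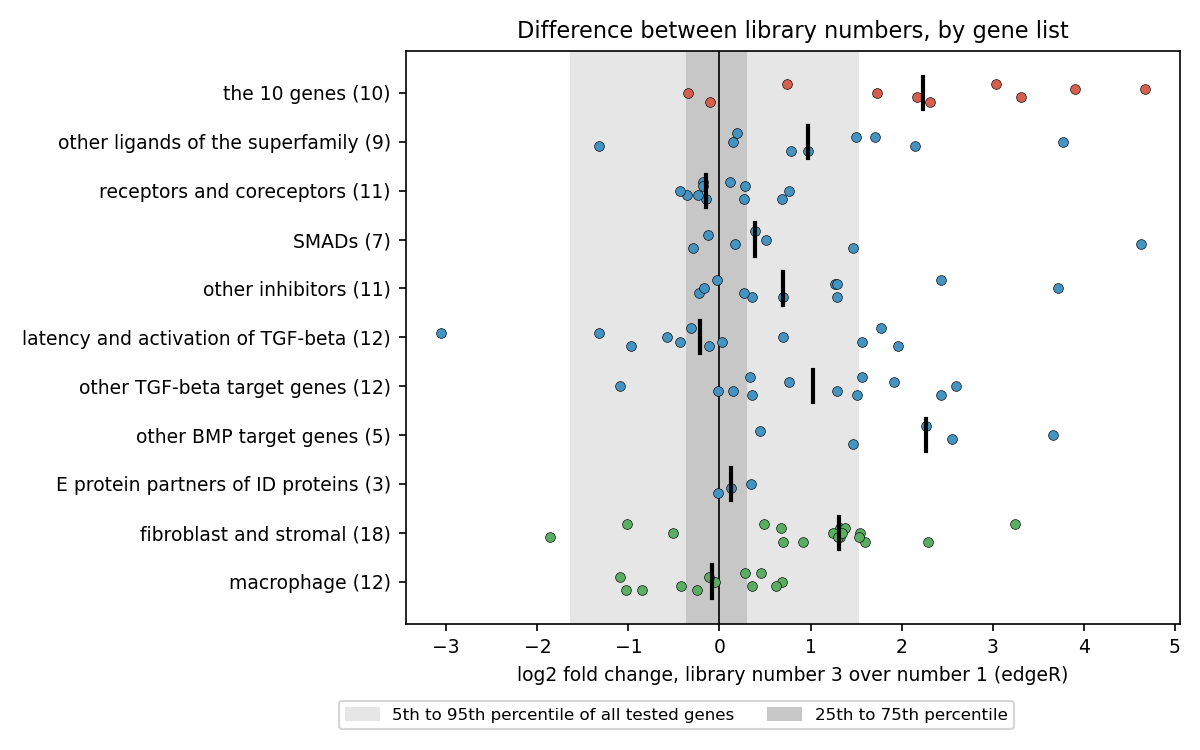
log2 fold change of number 3 over number 1 (edgeR) for the 10 genes, the other pathway lists and 2 marker lists, 1 point per tested gene, with black bars at list medians and grey bands for the percentiles of all tested genes. The 10 genes have a median of 2.24 and the fibroblast markers one of 1.31, while receptors and macrophage markers centre near 0; Id4, with 0 counts in number 1, is not drawn, so its list's bar stands for the remaining 5 genes.

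Mettl3 and its partners methylate adenosine in a sequence context of which GGACU is the most favoured form. The letters GGACT were counted in the longest protein-coding GENCODE M21 transcript of each gene, as a description of sequence, since no methylation was measured. Id1 held 3 in 1160 bases (2.59 per kb), Id3 3 in 1278 bases (2.35 per kb) and Id2 4 in 1969 bases (2.03 per kb), all above the median of 1.01 per kb over 21901 protein-coding genes. Tgfb1 held 5 in 2175 bases (2.30 per kb), a density higher than that of 92.6% of genes. Inhba with 0.31 and Grem1 with 0.24 per kb lay below the median. Tgfb2 (0.98), Smad7 (0.94) and Fst (0.71 per kb) also lay below it. Tgfb3 (1.18 per kb) lay above the median, as did Tgfb1, Id1, Id2 and Id3. Whether the density of these letters bears on the differences between genotypes was not tested.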

How the data were processed

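The authors deposited 1 table that gives, for each gene and library, estimated counts and FPKM, per the file headers. The submitters' processing notes name cutadapt 1.9, HISAT2 2.0.4, StringTie 1.3.4d, edgeR and DESeq2. Genome build, strand setting and the handling of multiply matching reads are not given in the sources used here. Among 55141 gene identifiers shared with GENCODE M21, 94.2% had the same start and end, as did 9 of the 10 genes. The deposited estimated counts were already whole, and 38.7% to 39.5% of low counts were multiples of 4, so read pairs per count are unknown; 12 counts gave 0.152 to 0.221 CPM. The deposited FPKM values, set by the authors, served only to order levels, in marker checks and in 2 alternatives. A further 4 columns, headed by a genotype without a number, matched no single sample and were not used.

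Counts were tested with edgeR 4.0.16 (R 4.3.3; TMM scaling, filterByExpr, quasi-likelihood test, two-sided, Benjamini-Hochberg over 17260 genes, threshold 0.05). CPM uses TMM-scaled library sizes, differences within a number use log2 CPM with a prior count of 2, and SE is the absolute log2 fold change over the square root of F. Alternatives used DESeq2 1.42.0, limma 3.58.1, other scalings and filters, counts divided by 4, fits with a replicate block and fits without each library in turn. The genes and lists were chosen with earlier results of these data known. All 10 genes were named, and of each other list the genes called or, where none was, the 2 with the highest mean FPKM; a result that this rule would name is not reported here.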

Additional observations from a re-analysis of the deposited data

Results flagged for a closer look

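For 7 of the 10 genes the difference KO minus WT had opposite signs in the 2 library numbers, which differ in sex pattern. The same held for 47% of all tested genes. The difference in log2 CPM within number 3 minus that within number 1 was -1.45 for Tgfb2, -1.10 for Tgfb3, -1.05 for Fst, -1.12 for Id1, -0.57 for Id2, 0.28 for Inhba and -0.066 for Smad7. With 1 library per genotype and number this difference was not tested. The counting interval within number 1 included 0 for each of these 7 genes.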

How the results depend on the processing

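Between genotypes, 0 of the 10 genes passed under any of the 13 alternatives run. The count over all genes was 0 except with DESeq2, which called 74, and with DESeq2 and a replicate block, which called 175. Under edgeR with the replicate block, Id3 had a log2 fold change of -0.77 (unadjusted p = 0.0108) and Grem1 one of -0.49 (unadjusted p = 0.0232), and 0 genes passed (929 at an unadjusted p under 0.05). The others moved towards 0 or past it, with -0.11 for Tgfb2, -0.51 for Fst, -0.34 for Id1 and -0.18 for Id2, and Tgfb1 (-0.09) and Smad7 (-0.03) barely moved. The median of the 10 became -0.15. In the same fit the fibroblast and stromal markers with the highest mean FPKM were also lower in KO. Sparc had -0.475 (edgeR unadjusted p = 0.0151) and Col1a1 had -0.546 (edgeR unadjusted p = 0.0177), while Mmp2 and Fap both lay at 0.04. The part of such cells in the values of Id3 and Grem1 was not tested. Deviations from the group means correlated at 0.42 across genes between KO 3 and WT 3, but with 2 pairs and no label behind the numbers this does not establish pairing. The sign of Inhba turned with the block in edgeR (-0.06) and DESeq2 (-0.055) and with limma on log2(FPKM + 1) (-0.048) and log2(FPKM + 0.1) (-0.068). That of Tgfb3 turned with the edgeR block (-0.003) and limma on log2(FPKM + 0.1) (-0.003).

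Leaving out 1 library mixes number with genotype, and the sign of 9 of the 10 genes then turned in part. The ranges of the log2 fold change were -1.43 to 1.57 for Tgfb2, -0.44 to 0.44 for Tgfb3, -3.08 to 2.94 for Inhba, -2.71 to 1.70 for Grem1, -1.97 to 1.23 for Fst, -2.70 to 2.24 for Id1, -1.23 to 1.01 for Id2, -4.47 to 2.99 for Id3 and -0.43 to 0.41 for Smad7. Tgfb1 stayed between -0.13 and -0.03.

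Between numbers, no gene of the set changed sign. Over all genes 122 passed, but 0 without the filter on low counts and 1233 with DESeq2. Of the 10 genes 3 passed, but 0 without the filter, 6 with DESeq2 and 5 without the genotype term. Leaving out 1 library in that last fit, an alternative added after seeing the data, gave 1 to 87 genes over all and 0 to 4 of the 10. Why the filter had this effect was not tested. Depth limits Tgfb2, Fst and Id1 most, with 19 to 57 counts in the libraries numbered 1.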

Other observations

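Id4, the remaining ID gene, was chosen after its values were seen. It had 48 and 45 counts in KO 3 and WT 3, against 0 counts in KO 1 and WT 1.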
